A study of Mus musculus with 23 samples.

Results

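The genes described here are 10 that mouse embryonic stem cells are known for: Dppa2, Dppa3, Dppa4, Dppa5a, Utf1, Tdh, Lin28a, Lin28b, Trim71 and Tcl1. They were chosen by name, and the choice rested on measured values, since they had shown high signal in the stem cells of these same arrays. Their difference between stem cells and muscle is therefore given as a description, with no test. On the array they have 16 probes, out of 55681 probes and 36095 gene names in all. Of the 10 genes 5 have 1 probe, 4 have 2 and Dppa4 has 3.

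RNA was measured on 23 one-colour arrays that run from stem cells to quadriceps muscle of male mice or cells, with 3 samples in each of 7 groups. Stem cells were the lines cGR8 of strain 129Sv, RD1 of strain 129X1/SvJ and E14tg2 of strain 129/Ola, the last on 2 arrays that were averaged, with no label on its sex. Myoblasts of C57BL/6J mice were taken at passage 0 or while proliferating at passages 8 to 10. Myotubes came from such myoblasts kept for 1, 2 or 4 days in a differentiation medium with little serum. Quadriceps came from 1 C57BL/6J mouse and from 2 of mixed strain, 129Sv/C57BL/6J. One further muscle sample, of strain NOD/ShiLtj, entered no comparison. Myoblasts grew in medium with bFGF and fetal serum on collagen, and myotubes formed on Matrigel in medium with horse serum. The labels give no ages, no genetic change and no medium for the stem cells. They do not say which samples came from separate animals. By the titles, each of 3 culture numbers has 1 proliferating, 1 day 1, 1 day 2 and 1 day 4 sample. Stem cells and muscle also differ in strain, which cannot be told apart from the cell type.

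The stem cell label was borne out by markers: 11 of 11 naive stem cell markers, Pou5f1 and Sox2 among them, were above background on all 3 stem cell samples. Of these 11, 5 were also above background on all samples of every muscle group. Stem cells also had 7 of 7 germ cell, 4 of 5 primed epiblast and 4 of 6 primitive endoderm markers above background on all 3 samples. So were 5 of 6 leukocyte, 5 of 7 adult fibre, 4 of 7 fibroblast, 3 of 5 endothelial and 0 of 4 adipocyte markers. Detection alone therefore does not single out the naive label. Myod1 and Pax7, which define muscle precursors, were below background in stem cells, where 2 of 6 myoblast and 3 of 6 myotube markers were above it on all 3 samples. Myoblasts and myotubes had 5 of 6 myoblast markers and 6 of 6 myotube markers above background. Myf5, the other myoblast marker, was below background on every sample of the 7 groups. Passage 0 myoblasts also had 7 of 7 fibroblast, 6 of 6 leukocyte, 7 of 7 adult fibre, 3 of 5 endothelial and 1 of 4 adipocyte markers on all 3 samples. Their summed fibroblast levels were 5.31 to 7.33, against 4.05 to 5.12 in proliferating myoblasts. Quadriceps had 5 of 6 myoblast markers as well. Detection thus does not single out the myoblast label either, and the part of other cells at passage 0 was not tested. Each array's levels are given as log2 of the scanner's processed signal minus the 75th percentile of that array. That percentile was 87.7 intensity units on proliferating myoblast replicate 1, by far the dimmest array, and 208 to 765 on the others. Between 39.1% and 60.1% of spots were above background. Levels of different probes were not compared, since probes differ in brightness for the same amount of RNA.

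As background, the 10 genes belong to a few functional groups. Dppa2 and Dppa4 are neighbouring genes whose proteins act as a pair on chromatin and help to switch on genes of the early embryo. Dppa3, also called Stella, is a maternal factor that shapes DNA methylation in the early embryo, Dppa5a encodes a small protein with an RNA-binding fold, and Utf1 encodes a chromatin protein of undifferentiated cells. Lin28a and Lin28b are RNA-binding proteins that stop let-7 microRNAs from maturing, and Trim71 is a let-7 target. Tdh breaks down threonine, on which mouse stem cells depend, and Tcl1 is a cofactor of the kinase Akt.

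Lin28a, Lin28b and Trim71 are tied to let-7, and the sequences below show what microRNAs of that family have in common. Of 11 mature let-7 and miR-98 sequences from the 5′ arm in RefSeq (build GRCm38.p6), 10 carry the seed of let-7a at bases 2 to 8, in capitals here. MicroRNAs were not measured in these data.
let-7a: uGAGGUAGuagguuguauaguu
let-7g: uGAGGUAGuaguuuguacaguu
miR-98: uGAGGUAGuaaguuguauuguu

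RefSeq promoters (build GRCm38.p6) were matched for 5 of the 10 genes: Utf1, Lin28a, Lin28b, Trim71 and Tcl1. The 250 bases before the transcription start differed in their number of CpG dinucleotides, the site of DNA methylation in mammals, which are in capitals below. There were 17 in Trim71, 14 in Utf1, 7 in Lin28a, 7 in Tcl1 and 6 in Lin28b, and the median over 32851 promoters was 6. Base composition differed as well, with 39.2% G and C in Lin28b and 57.6% to 62.8% in the other 4. Shown are Utf1, whose signal stayed above background throughout muscle, and Lin28b and Tcl1, whose signal did not. Lin28a also stayed above background throughout, with as many CpG as Tcl1. The Utf1 window lies at chr7:139943606-139943855 on the plus strand, that of Lin28b at chr10:45470202-45470451 on the minus strand and that of Tcl1 at chr12:105222738-105222987 on the minus strand.
Utf1: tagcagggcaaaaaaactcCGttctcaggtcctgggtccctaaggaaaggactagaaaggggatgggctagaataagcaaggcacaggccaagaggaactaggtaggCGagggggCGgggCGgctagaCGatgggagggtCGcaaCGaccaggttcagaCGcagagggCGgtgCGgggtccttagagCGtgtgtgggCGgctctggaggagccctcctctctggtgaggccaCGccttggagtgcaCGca
Lin28b: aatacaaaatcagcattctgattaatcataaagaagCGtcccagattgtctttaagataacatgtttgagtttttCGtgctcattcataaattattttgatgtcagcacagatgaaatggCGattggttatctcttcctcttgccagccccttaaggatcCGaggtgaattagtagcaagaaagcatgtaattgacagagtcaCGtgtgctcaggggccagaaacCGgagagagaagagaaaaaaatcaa
Tcl1: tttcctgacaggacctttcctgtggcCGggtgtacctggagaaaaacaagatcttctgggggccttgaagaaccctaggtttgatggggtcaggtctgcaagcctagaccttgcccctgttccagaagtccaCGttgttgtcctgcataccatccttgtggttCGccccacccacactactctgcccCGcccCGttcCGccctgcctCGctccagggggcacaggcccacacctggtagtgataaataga

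These windows were searched on both strands for 6 short motifs: the octamer ATGCAAAT read by Oct4, ACAATGG of Sox proteins, TCAAGGTCA of Esrrb, GGGTGTGG of Klf proteins, TATAAA and CCAAT. The only match in the 5 windows was CCAAT in Lin28b, on the strand opposite to the one printed above, 128 bases before the start. Over all promoters of the same length the shares were 1.6% for the octamer, 3.02% for ACAATGG, 0.387% for TCAAGGTCA, 3.2% for GGGTGTGG, 12.4% for TATAAA and 33.8% for CCAAT.

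**Figure D1:**
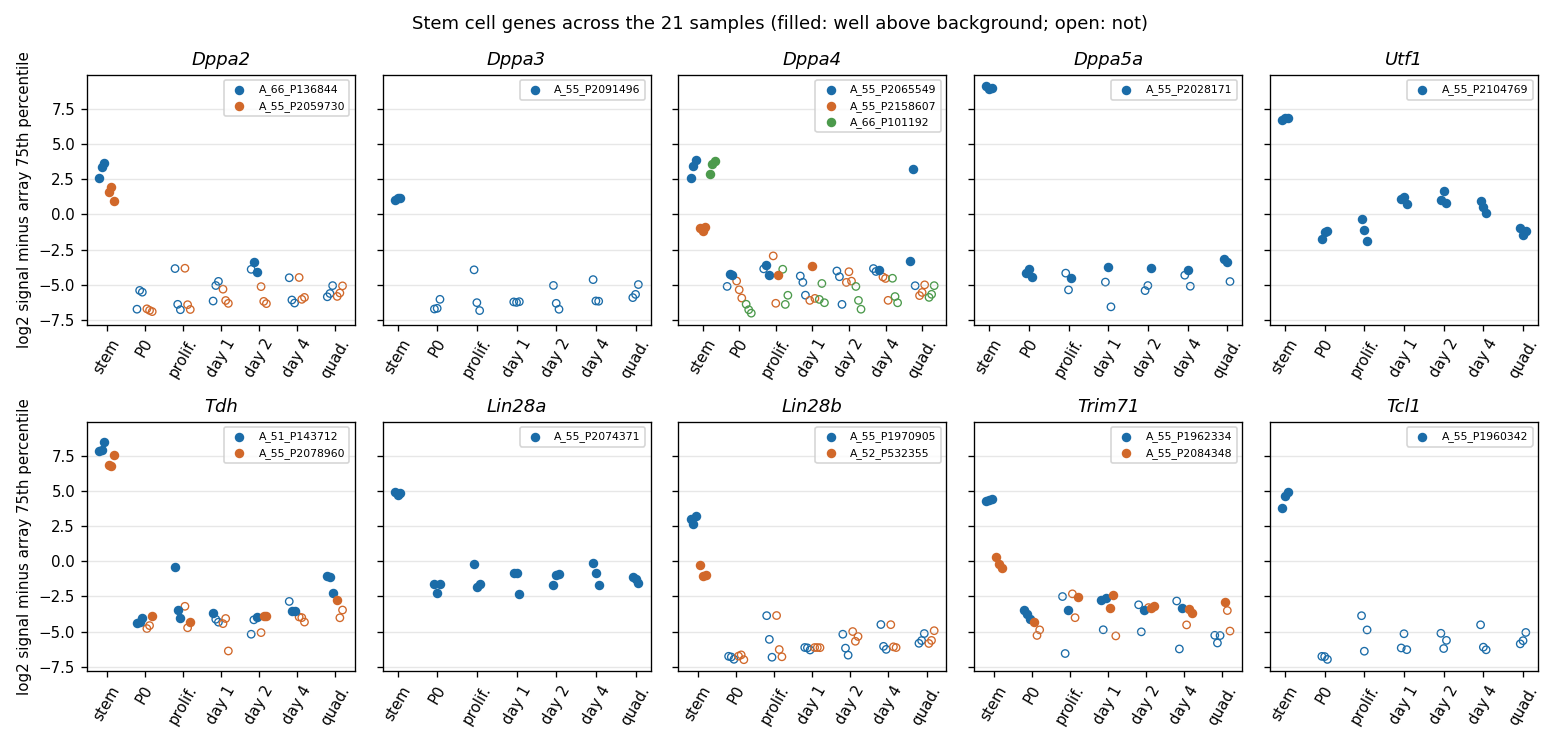
Level of each probe, as log2 signal minus the 75th percentile of its array (vertical axis), for the 16 probes of the 10 genes in the 21 samples, by group from stem cells to quadriceps (P0, passage 0; prolif., proliferating). Filled points are well above background, open points are not, and colours are probes. All 16 probes are filled in stem cells; elsewhere most points are open, except for Utf1, Lin28a and 1 Tdh probe, and 1 Dppa4 probe is high in quadriceps replicate 2.

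All 16 probes were well above background on all 3 stem cell samples, and in muscle most were not. Over the 288 pairs of probe and muscle sample, 91 were above background. For 6 probes none of the 18 muscle samples was: 1 of the 2 for Dppa2, 1 of the 3 for Dppa4, both for Lin28b and the single probes of Dppa3 and Tcl1. Of all probes above background on the 3 stem cell samples, 4.1% were likewise below background in all muscle samples, and nothing is read from the members' share, since the choice used this contrast. In 15 of 16 probes the lowest stem cell sample lay above the highest muscle sample, as it did in 16.3% of all probes above background on the 3 stem cell samples. The exception was 1 Dppa4 probe in quadriceps replicate 2, and without that sample the count was 16 of 16, against 16.6% of those probes. Nothing is read from these shares either. Since these are bulk samples, fewer cells with a transcript and less of it per cell cannot be told apart.

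The Dppa genes came first. Dppa2 and Dppa4 lie side by side on chromosome 16, and their probes were read from their transcripts at chr16:48319381-48319440 and chr16:48291368-48291427 of build mm9. The brighter Dppa2 probe (A_66_P136844) stood at 2.59 in cGR8, 3.36 in RD1 and 3.66 and 3.58 on the arrays of E14tg2. It was below background on all muscle samples except day 2 replicates 2 and 3, at -3.37 and -4.12. Dppa2 was thus high in all lines and at or near background from passage 0 on. With background as the limit, its stem cell mean of 3.19 ± 0.54 (SD, n = 3) was at least 269-fold that of passage 0 myoblasts and at least 106.9-fold that of quadriceps. The other Dppa2 probe (A_55_P2059730) crosses an exon junction and gave at least 83.2-fold and at least 33.1-fold. Such bounds set each dim array at the lowest level any probe well above background had there.

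For Dppa4 the probe A_66_P101192 measured 2.9 in cGR8, 3.58 in RD1 and 3.8 and 3.75 on the E14tg2 arrays, and was below background in all muscle samples. Its stem cell mean was at least 315-fold that of passage 0 myoblasts and at least 125-fold that of quadriceps. A_55_P2158607, nearer the end of the transcript, had -1.04 ± 0.15 (SD, n = 3) and gave at least 14.2-fold over passage 0. All 3 probes thus put Dppa4 lower in myoblasts. The probe A_55_P2065549 ranged from 2.6 in cGR8 to 4.2 on 1 array of E14tg2 and lay between -6.39 and -3.30 in 17 muscle samples. In quadriceps replicate 2 it stood at 3.2, inside the range of stem cells.

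That 1 high value stood on a bright patch of the array. The signal was 6.51 log2 units above the brighter of the other quadriceps arrays, and both other Dppa4 probes were below background on the same array, at -5.55 and -5.68. Of the 44 spots within 4 rows and 2 columns, 16 (36.4%) were over 4-fold brighter than on both other quadriceps arrays, including 1 control spot, against 0.557% of all spots on that array. The pixels of the Dppa4 spot were uneven, with an SD of 0.363 of their mean, against a median of 0.127 for spots within 2-fold of its signal. The quadriceps mean of this probe, -1.72 ± 4.36 (SD, n = 3), rests on that array; replicates 1 and 3 had -3.30 and -5.07.

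Dppa3, at chr6:122580207-122580266, had 1.04 in cGR8, 1.18 in RD1 and 0.61 and 1.65 on the E14tg2 arrays. These 2 arrays of 1 RNA differed by more than the 3 lines did, so the lines cannot be ordered. No muscle sample was above background, and the stem cell mean of 1.12 ± 0.07 (SD, n = 3) was at least 63.9-fold that of passage 0 and 25.4-fold or more that of quadriceps. Dppa3 therefore followed Dppa2 and Dppa4 in its pattern. Dppa5a, at chr9:78214866-78214925, had 9.1 in cGR8, 8.9 in RD1, and 9.09 and 8.9 on the E14tg2 arrays. Its probe was above background in 9 of 18 muscle samples, with all 3 at passage 0, at -4.19, -3.86 and -4.45. The stem cell mean of 9.0 ± 0.10 (SD, n = 3) was 9187-fold that of passage 0 and 6981-fold that of quadriceps, where 2 of 3 samples were above background.

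Among the let-7 genes, Lin28b fell to background and Lin28a did not. The Lin28b probe at chr10:45096468-45096527 had 2.99 in cGR8, 2.64 in RD1 and 3.25 and 3.23 on the E14tg2 arrays. Both Lin28b probes were below background in every muscle sample. By the first of them the stem cell mean of 2.96 ± 0.30 (SD, n = 3) was at least 229-fold that of passage 0 and at least 90.9-fold that of quadriceps. The second, nearer the start of the transcript, gave at least 17.4-fold and at least 6.9-fold.

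The Lin28a probe, at chr4:133559245-133559304, measured 4.93 in cGR8, 4.68 in RD1 and 5.06 and 4.56 on the E14tg2 arrays. It was above background on every muscle sample, where it had a lowest level of -2.36, a median of -1.43 and a highest level of -0.10. Stem cell and muscle samples did not overlap, but muscle kept a measurable signal. The stem cell mean of 4.80 ± 0.13 (SD, n = 3) was 101-fold that of passage 0 myoblasts, 51.2-fold that of day 4 myotubes and 70.8-fold that of quadriceps. The 6 muscle groups had means from -1.85 ± 0.37 (SD, n = 3) at passage 0 to -0.87 ± 0.78 (SD, n = 3) on day 4. Passage 0 lay below quadriceps without overlap, and every other pair of muscle groups overlapped.

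Trim71, an RNA-binding ubiquitin ligase, had 4.29 in cGR8, 4.35 in RD1 and 4.49 and 4.34 on the E14tg2 arrays by the probe at chr9:114420415-114420474. In muscle 8 of 18 samples were above background, including all 3 at passage 0, at -3.49, -3.77 and -4.12, and none of quadriceps. By this probe Trim71 thus left a faint signal at passage 0 and none above background in quadriceps. The stem cell mean of 4.35 ± 0.07 (SD, n = 3) was 282-fold that of passage 0 and at least 239-fold that of quadriceps. The other Trim71 probe had -0.16 ± 0.39 (SD, n = 3) in stem cells, and was above background in 9 muscle samples, among them quadriceps replicate 1 at -2.90. By that probe stem cells were 25.2-fold above passage 0 and 12.4-fold above quadriceps, from measured means with only 1 of 3 samples above background in each.

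Tcl1, at chr12:106454973-106455032, stood at 3.78 in cGR8, 4.65 in RD1 and 4.79 and 5.03 on the E14tg2 arrays. It was below background in all 18 muscle samples, which makes the stem cell mean of 4.45 ± 0.59 (SD, n = 3) at least 642-fold that of passage 0 and at least 255-fold that of quadriceps. cGR8 was the lowest of the lines for Tcl1, for the brighter Dppa2 probe and for 2 of the 3 Dppa4 probes. RD1 was the lowest for the remaining Dppa4 probe, for Dppa5a and for the first Lin28b probe, and E14tg2 for the other Dppa2 probe. For Dppa5a cGR8 was the highest. The members thus did not order the lines alike. Each line is 1 sample, so the order was not tested. Over all probes the lines correlated at 0.971 to 0.982 and the arrays of E14tg2 at 0.981.

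Utf1 was the only member with a clear time course within muscle. Its probe, at chr7:147130950-147131009, measured 6.67 in cGR8, 6.81 in RD1 and 6.96 and 6.77 on the E14tg2 arrays. In passage 0 myoblasts it stood at -1.77, -1.26 and -1.17, and in proliferating myoblasts at -0.35, -1.08 and -1.90. In myotubes it was at 1.08, 1.24 and 0.74 on day 1, at 1.05, 1.69 and 0.84 on day 2 and at 0.98, 0.55 and 0.12 on day 4. Quadriceps had -0.96, -1.49 and -1.18. All 9 myotube samples lay above all 6 myoblast samples and above all 3 quadriceps samples, and every one of these 18 was well above background. By their titles the 9 myotube samples and the 3 proliferating samples share 3 culture numbers, so they are not independent samples. Myotubes nevertheless remained far below stem cells, whose mean of 6.78 ± 0.10 (SD, n = 3) was 54.2-fold that of day 1 and 290-fold that of passage 0. By group mean the order was passage 0, quadriceps, proliferating, day 4, day 1, day 2 and stem cells. The first 3 overlapped with each other, day 4 overlapped with day 1 and day 2, and day 1 with day 2.

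**Figure D2:**
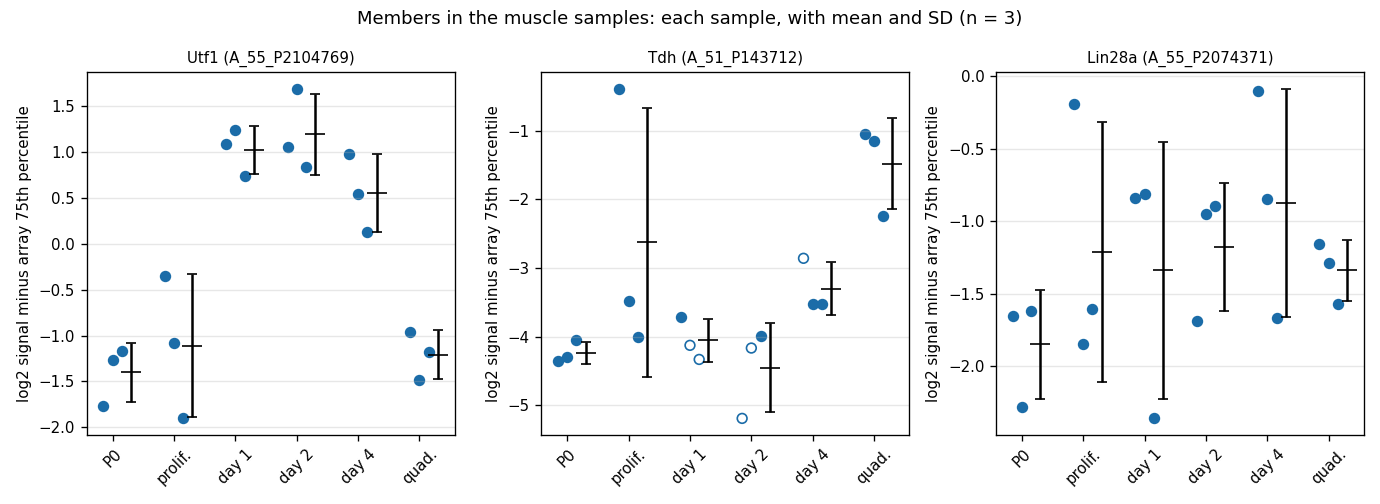
Level, as log2 signal minus the 75th percentile of its array (vertical axis; the scales differ), of Utf1, Tdh and Lin28a in the 18 muscle samples, by group. Points are samples (filled where well above background), and bars give the mean and SD of 3. Utf1 is higher in all 9 myotube samples than in myoblasts and quadriceps, Tdh is highest in proliferating replicate 1 and in quadriceps, and the Lin28a groups overlap, except passage 0 with quadriceps.

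Utf1 was 4.38-fold higher in day 1 myotubes than in proliferating myoblasts, a log2 difference of 2.13 (SE 0.38), with an adjusted p of 0.00186 in limma. It was the only one of 3 member probes tested in that comparison to be called, where 5.32% of 25739 probes were called higher and 2.88% lower. The difference had the same sign on all 3 slides, at 1.59, 2.99 and 1.82. On each slide the 2 samples compared had different culture numbers. With only these 2 groups in the fit the adjusted p was 0.246, and no probe at all was called. Utf1 then fell by 1.76 on the log2 scale (SE 0.38) from day 4 myotubes to quadriceps, which was 3.39-fold, with a limma adjusted p of 0.00154. It was lower on all 3 slides, by differences of -1.50, -2.47 and -1.31, and stayed called in all 16 alternatives. In that comparison 15.2% of 24638 probes were called higher and 15.9% lower. Between day 1 and day 4 the difference was -0.47 with a limma adjusted p of 0.576, and from passage 0 to proliferating it was 0.29 with 0.698.

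Tdh, at chr14:64111327-64111386 by the probe A_51_P143712, had 7.81 in cGR8, 7.89 in RD1 and 8.56 and 8.35 on the E14tg2 arrays. Passage 0 myoblasts had -4.36, -4.30 and -4.05, all above background, and quadriceps had -1.05, -1.16 and -2.24. The stem cell mean of 8.05 ± 0.35 (SD, n = 3) was 5002-fold that of passage 0 and 741-fold that of quadriceps. Within muscle, quadriceps was thus the group with the highest mean, and it did not overlap with day 4 myotubes, at -2.86, -3.52 and -3.52, the first of which was not above background. The difference was 3.54-fold, or 1.82 on the log2 scale (SE 0.66), and it was 2.48, 1.70 and 1.29 by slide. Limma called it with an adjusted p of 0.0402. The probe was measured in 2 of 3 day 4 samples and passed the filter only through quadriceps, where it was higher. No support is therefore drawn from that p. This call was lost in 9 of 15 alternatives, among them leaving out any 1 of the day 4 samples or quadriceps replicate 1 or 2. Over the alternatives the adjusted p ranged from 0.0174 to 0.124 and the difference from 0.90 to 2.20. The other Tdh probe, which overlaps the first by 21 bases, was above background only in quadriceps replicate 1 of these 6 samples and was not tested.

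Markers of adipocytes and fibroblasts were higher in quadriceps in the same comparison. All 4 adipocyte markers were above background in all 3 quadriceps samples, with summed levels of 7.14 to 9.53, and none was in all 3 day 4 samples, at -2.87 to -1.79. The 7 fibroblast markers were all above background in quadriceps, with summed levels of 8.25 to 9.68 against 3.38 to 4.08 on day 4, where 5 were. The 5 endothelial markers gave overlapping sums, 3.71 to 4.29 in quadriceps and 2.28 to 3.99 on day 4, where Cdh5 and Emcn were below background. Their part in the Utf1 and Tdh differences, and in those of listed genes in this comparison, was not tested.

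Proliferating replicate 1, on the dimmest array, had -0.39 for Tdh, while replicates 2 and 3 had -3.48 and -4.01. Against passage 0 the difference was 1.61 with a limma adjusted p of 0.244, and the difference of day 1 from proliferating myoblasts was -1.43, or -0.31 without that replicate. No member probe was called among 5 tested in proliferating against passage 0 myoblasts by limma, with 1 at an unadjusted p under 0.05. There 0.309% of 27866 probes were called higher and 0.52% lower. Nor was either of 2 tested in day 4 against day 1 myotubes, with 0 at an unadjusted p under 0.05, against 3.61% of 25453 probes called higher and 3.85% lower. Lin28a was tested in all 4 comparisons and called in none, with differences of 0.64, -0.12, 0.46 and -0.47 in the order of the stages. A p above the threshold does not show that its levels were equal.

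Genes of the pathways around the members were then counted, from lists written with earlier results of these data known. The let-7 list holds 24 processing enzymes and known targets. From stem cells to passage 0 myoblasts 7 of its 24 tested genes were lower and 4 higher in limma, with a median log2 change of -0.24. Over all 31291 probes tested 20.6% were lower and 17.5% higher, with a median of -0.27. Igf2bp1, an RNA-binding protein of growing embryonic tissue, was 215-fold lower, from 4.33 to -3.42 (adjusted p = 2.63e-07), and Mycn, a relative of Myc, was 486-fold lower, with 1 of 3 passage 0 samples above background. Hmga2, a chromatin protein, went the other way and was 22.8-fold higher in myoblasts (adjusted p = 2.07e-07), as was the cell cycle gene Ccnd1, by 6.23-fold. The known targets of let-7 thus moved both ways.

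Later steps had more genes of this list called lower than higher. In day 1 against proliferating myoblasts 5 of 20 tested genes were lower and 1 higher, with a median of -0.26 against -0.04 over all probes. Of all probes tested 2.88% were called lower and 5.32% higher. With only these 2 groups in the fit none of the listed genes was called. Hmga2 was 6.5-fold lower (adjusted p = 0.00091) and Myc, lost under 8 of 15 alternatives, 3.96-fold lower. Ago2, which carries microRNAs, was 2.66-fold higher, and that call was lost without day 1 replicate 3. In quadriceps against day 4 myotubes 6 of 19 were lower and 1 higher, with a median of -0.70 against -0.03 over all probes. There 15.9% of all probes tested were called lower and 15.2% higher. Hmga2 was 9.51-fold lower again (adjusted p = 1.72e-05), with 2 of 3 quadriceps samples above background, and Ccnd2 4.21-fold. Dicer1, which cuts microRNA precursors, was 2.57-fold higher but lost that call in 6 of 16 alternatives. Between day 1 and day 4 only Ccnd1 of 20 was called, 4.33-fold lower, a call lost without day 1 replicate 1 or day 4 replicate 2 and with only the 2 groups in the fit. From passage 0 to proliferating myoblasts limma called none of 22, with 6 at an unadjusted p under 0.05.

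Tdh hands its product to Gcat, and the glycine made feeds the glycine cleavage system and the one-carbon cycle, which were covered by a list of 15 genes. In passage 0 myoblasts 6 of 15 tested genes were lower than in stem cells and 1 was higher, with a median of -0.49. Over all probes tested 20.6% were lower and 17.5% higher, with a median of -0.27. Gldc, the first enzyme of glycine cleavage, was 68.5-fold lower, from 4.42 to -1.68 (adjusted p = 1.48e-08). Amt, of the same system, was below background in all passage 0 samples and at least 13.4-fold lower. Gcat itself, from 4.79 ± 0.22 (SD, n = 3) to 1.23 ± 0.22 (SD, n = 3), was 11.8-fold lower. Dld, shared with other enzyme complexes, was 2.16-fold higher, and this call was lost without cGR8. Gcat, Gldc and Amt all act after Tdh in this route.

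In quadriceps against day 4 myotubes 6 of 13 tested genes of the list were lower and 2 higher, with a median of -1.28. Over all probes tested 15.9% were lower and 15.2% higher, with a median of -0.03. Psat1 and Phgdh, which make serine, were 61.6-fold and 56.4-fold lower (adjusted p = 1.57e-08 and 2.12e-08). Shmt1, which links serine and glycine, was 2.38-fold higher, a call that was lost in 8 of 15 alternatives. Gldc, 5.61-fold higher on day 1 than in proliferating myoblasts, was 3.83-fold lower in quadriceps than on day 4, while Shmt1 had been 3.87-fold lower on day 1. Gldc and Shmt1 were the 2 of 14 called on day 1, where 5.32% of all probes tested were called higher and 2.88% lower. Neither the step to proliferating myoblasts nor that from day 1 to day 4 had a call in limma among 14 genes, with 3 at an unadjusted p under 0.05 in each.

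Genes of the embryo's two-cell stage, which Dppa2 and Dppa4 are known to help switch on, formed a list of 12, with 9 on the array and 7 tested in passage 0 against stem cells. Lower were 6 and higher none, with a median of -7.08. Over all probes tested in this contrast 20.6% were lower and 17.5% higher. With a filter that asks for signal in both groups none was called. Zscan4f was below background in all passage 0 samples and at least 396-fold lower, and Zscan4e, with 1 of 3 samples above background, was 872-fold lower. The Zscan4 genes are close copies, so their probes may share RNA and are not 4 separate findings. Zfp352, the only one tested within muscle, was called in no comparison. Around Tcl1, 12 of 16 genes of its family and of the Akt pathway were tested in the same contrast. Of these 2 were lower and 5 higher, against the same shares over all probes, with a median of 0.60. Eras, an embryonic relative of Ras, was below background at passage 0 and at least 137-fold lower, and Pik3cb 3.50-fold lower, a call lost under quantile normalization with a difference of -1.64 against -1.81. Akt1 rose 7.10-fold and Foxo3, a target of Akt, 5.71-fold.

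Within muscle 10 genes of the Akt list were tested in each comparison. On day 1 against proliferating myoblasts 2 were called higher and 0 lower, against 5.32% and 2.88% of all probes. In quadriceps against day 4 myotubes 1 was higher and 2 were lower, against 15.2% and 15.9%. Limma called none in proliferating against passage 0 myoblasts (1 at an unadjusted p under 0.05), where 0.309% of all probes were higher and 0.52% lower. It called none in day 4 against day 1 (0), where the shares were 3.61% and 3.85%. On day 1 Pik3cb was 4.81-fold and Pdpk1 2.40-fold higher than in proliferating myoblasts, the second with a call that was lost when proliferating replicate 1 or any day 1 sample was left out, with differences of 0.88 to 1.34. In quadriceps against day 4 Foxo3, below background in quadriceps, was at least 4.28-fold lower, Akt1 was 5.06-fold lower and Mtcp1, a Tcl1 relative, 2.41-fold higher, the last lost in 7 of 15 alternatives.

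**Figure D3:**
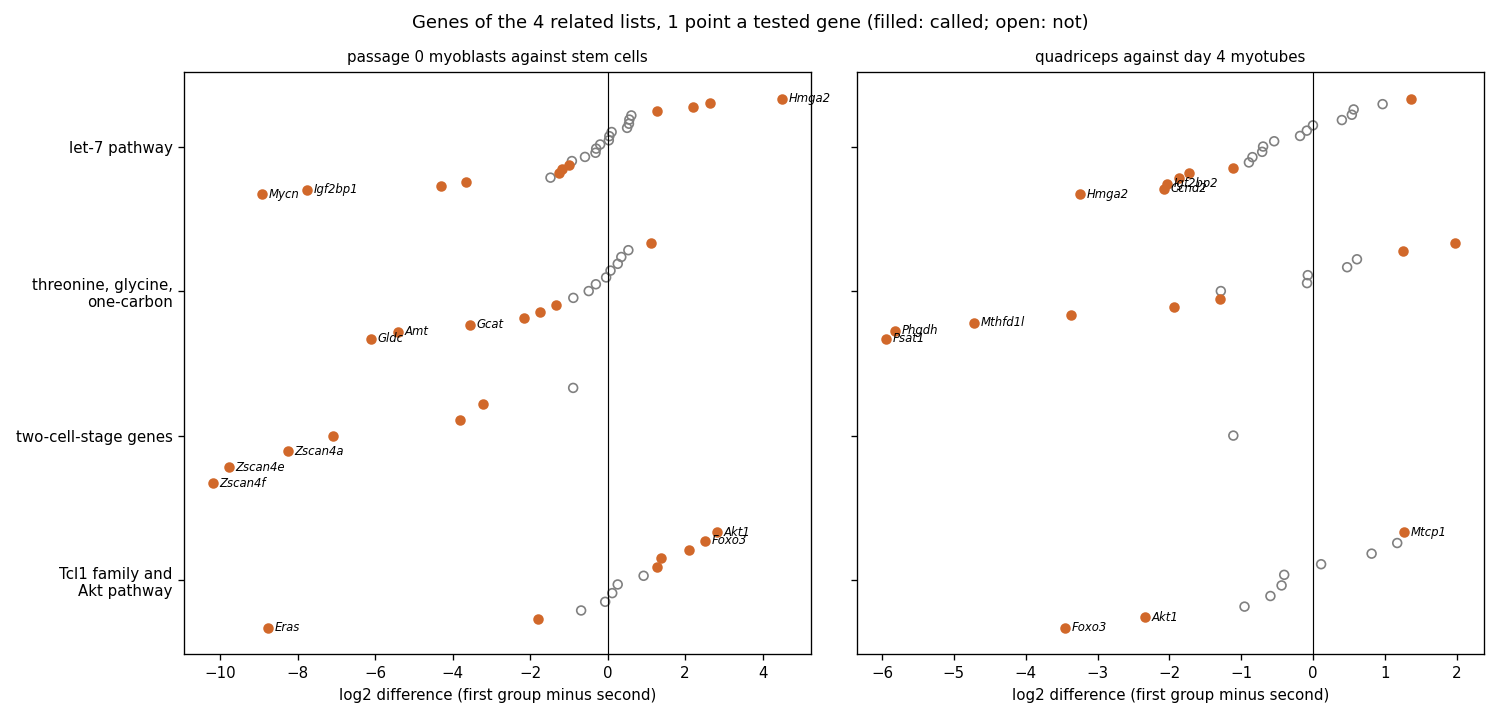
Log2 difference (horizontal axis) of each tested gene of the 4 lists, 1 row of points a list, for passage 0 myoblasts minus stem cells (left) and quadriceps minus day 4 myotubes (right). Filled points passed an adjusted p of 0.05 and a fold of 2; genes with the largest changes are named, and differences are of measured means, also where a group was below background. Zscan4 genes, Mycn, Eras and Igf2bp1 lie far to the left in the first panel and Psat1 and Phgdh in the second.

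The genes next to each member on the chromosome were examined in passage 0 myoblasts against stem cells. RefSeq order gave 18 neighbours that are not members, since Dppa2 and Dppa4 adjoin each other, and 13 were tested. Of these 4 were lower, 3 were higher and the others were not called by limma. Over all probes tested 20.6% were lower and 17.5% higher, and nothing about position is read from the counts. The 4 lower genes lay beside Dppa2, Dppa3, Dppa5a and Utf1. Morc1, a germ cell gene beside Dppa2, was below background in all passage 0 samples and at least 249-fold lower. Gdf3, a growth factor of the embryo beside Dppa3, was 17.4-fold lower, Ooep, an egg protein beside Dppa5a, 5.15-fold lower with 1 of 3 samples above background, and Spef1l beside Utf1 3.32-fold lower. The last 2 calls were lost with the authors' values, and that of Spef1l also without RD1.

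On the other side of Dppa3 lies Nanog, whose 2 probes disagreed. The one with the higher mean over all samples was at -2.13 ± 0.54 (SD, n = 3) in stem cells and -0.90 ± 0.19 (SD, n = 3) at passage 0, and was not called (adjusted p = 0.118). The other was at 6.07 ± 0.50 (SD, n = 3) in stem cells, was below background in every muscle sample, and was at least 1985-fold lower at passage 0. This probe entered the test only through stem cells and was picked after its values were seen, so no p is given. Both probes of Gdf3 were called lower, the second by 712-fold and also tested only through stem cells. Its passage 0 samples ranged from -7.17 to -1.23, and only the highest was above background. Kndc1, the other neighbour of Utf1, was not tested by its brightest probe. Its 2 other probes were below background at passage 0, at least 67.0-fold and at least 5.6-fold lower. They too entered the test only through stem cells and were picked after their values were seen, so nothing is read from their calls. Of the 3 Nectin3 probes 1 was not called. Higher in myoblasts were Bves beside Lin28b, a membrane protein of muscle, by 80.9-fold, Nectin3 beside Dppa4 by 3.87-fold and Fam167a beside Tdh by 3.61-fold, the last lost in 4 of 14 alternatives.

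The neighbours were also followed through the later steps. In proliferating against passage 0 myoblasts 1 of 11 tested was called. This was D430019H16Rik, beside Tcl1, called lower, and that call was lost in 6 of 14 alternatives. Of all probes tested there 0.309% were called higher and 0.52% lower. In quadriceps against day 4 myotubes 1 of 9 tested was called, against 15.2% of all probes called higher and 15.9% lower. This was Mtmr9, beside Tdh, 2.88-fold lower where the first Tdh probe was higher. Of the neighbours of Utf1, Kndc1 was not tested within muscle by its brightest probe, and Spef1l was called in no comparison there. None of the 9 neighbours tested was called by limma on day 1 or from day 1 to day 4. Over all probes 5.32% were called higher and 2.88% lower on day 1, and 3.61% and 3.85% from day 1 to day 4.

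**Figure D4:**
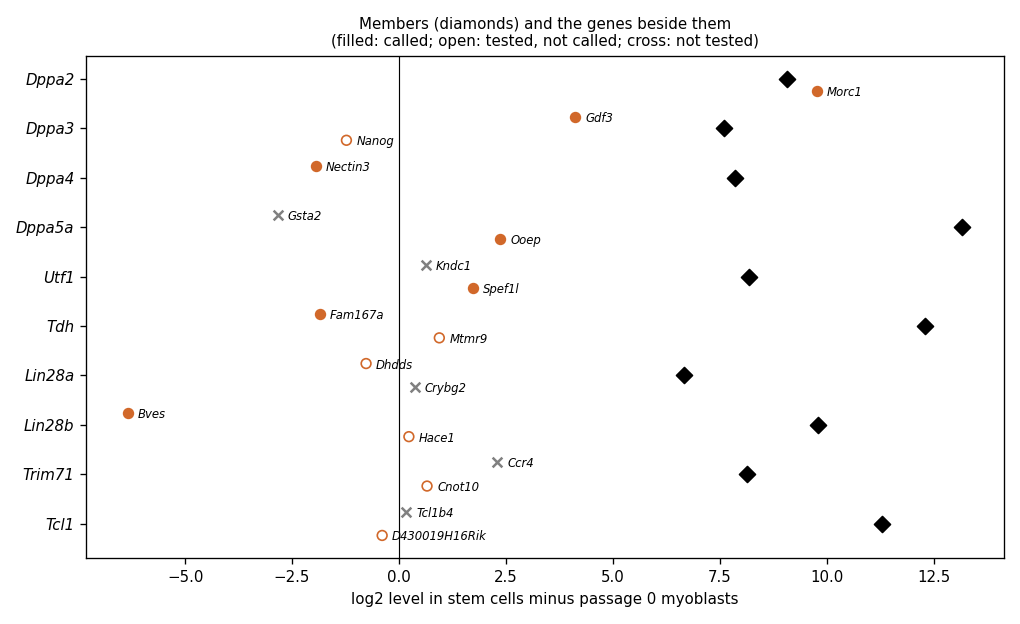
Log2 level in stem cells minus passage 0 myoblasts (horizontal axis) for each member (diamonds, brightest probe) and the nearest protein-coding gene on either side that has a probe (circles; crosses were not tested). Differences are of measured means, also where a group was below background. Members lie between 6.66 and 13.2, while neighbours spread to both sides of 0, from Morc1 on the right to Bves on the left.

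Other genes followed the same course. Over the 21 samples the genes whose level correlated most with the mean of the 10 members included Nanog by its second probe (Pearson r = 0.996), Bex4 (0.995), Triml1 (0.994), Sox2 (0.994), Fgf4 (0.993), Pou5f1-rs4 (0.993) and Zscan4f (0.993). None of these 7 was above background in any muscle sample. Probes without a current gene symbol that ranked among them are not named. The samples fall into stem cells and muscle, so these values describe that contrast, and 3.59% of the 27910 probes compared had an r over 0.9. Nanog and Sox2 encode transcription factors of stem cells, and Fgf4 is the growth factor that drives their exit from that state.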

How the data were processed

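The members and gene lists were chosen with earlier results of these data known. Per the file headers, Feature Extraction 10.7.3.1 gave every spot a processed signal, an intensity with background subtracted. The mean and background signals are deposited as raw intensities, and flags mark spots well above background. The authors also deposited log2 values with a median of 6.72 on every array, which correlated with log2 processed signal at 0.954 to 0.991 and whose method is not given in the sources used here. Positions of probes were taken from the scanner output (mm9). Of 62976 spots 59305 were no controls. Genes were named through RefSeq with the accession (26582 probes), symbol (2602) or synonym (492), while 26005 kept the name in the file.

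Log2 processed signal minus the array's 75th percentile was averaged over spots of a probe, without spots the scanner marked as outliers. A limma 3.58.1 model in R 4.3.3 held 7 groups and 21 samples, with 14 residual degrees of freedom. Testing required signal well above background in all 3 samples of either group, and a call required a 2-fold difference with p, adjusted by Benjamini-Hochberg, below 0.05. Its p-values reflect only how far these samples spread, which may be technical. The scripts were tested on simulated data. A gene in a list or beside a member is its brightest probe. Named are all members, the 8 most correlated genes, all neighbours called, and of each list up to 2 genes with the largest fold per direction and comparison (2 genes that this rule names are not reported here), with a few more (Gcat, second probes of neighbours, Pou5f1) chosen after their values were seen. The 3 slides hold every group. Replicate numbers stand for shared culture numbers only among proliferating myoblasts and myotubes. Deviations from group means of like-numbered samples correlated at 0.191 to 0.747 between days 1 and 4 and at 0.152 to 0.358 between day 4 and quadriceps, but at -0.293 to 0.179 between proliferating and day 1. The number of arrays limits the precision.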

Additional observations from a re-analysis of the deposited data

Results flagged for a closer look

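The single muscle sample of strain NOD/ShiLtj, which entered no comparison, had 3 member probes that were well above background and higher than in all 3 quadriceps samples. Lin28a stood at -0.13, against -1.57 to -1.16 in quadriceps. The second Trim71 probe stood at -1.80, against -4.96 to -2.90, while the first was below background. Tcl1 stood at -3.45, whereas it was below background in all 18 muscle samples of the 7 groups. The sample has no replicate, and these differences were not tested.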

How the results depend on the processing

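In proliferating against passage 0 myoblasts 231 probes were called, and 441 with normexp background correction, 612 with quantile normalization, 609 with the authors' values, 359 with no filter, 54 with both groups above background and 350 with a replicate block. With only the 2 groups compared limma called 0 (1370 at an unadjusted p under 0.05), and without 1 replicate 53 to 707. In day 1 against proliferating myoblasts 2111 were called, 0 with only the 2 groups (2327 at an unadjusted p under 0.05) and 977 to 2546 without 1 replicate, the lowest without day 1 replicate 3. In day 4 against day 1 the count of 1899 became 543 with only the 2 groups and 863 to 2171 without 1 replicate. With both groups above background, 7645 became 4520 in quadriceps against day 4 and 11916 became 6534 in passage 0 against stem cells. The median over the members of stem cells minus the mean of the other groups was 8.49, and 6.09 with normexp, 6.13 with the authors' values, 7.01 with the mean of a gene's probes and 8.37 to 8.66 without 1 stem cell line. Of 540 recomputed differences of members between stem cells and another group, 136 moved by at least the pooled SD of the 2 groups. The other 404 moved by less, and none changed sign. The folds of members over muscle given above thus vary with the processing. No called result changed direction, but 7 recomputed differences of members that were not called changed sign: Trim71 (2 settings), Dppa5a and Utf1 from passage 0 to proliferating, and Lin28a on day 1 (2) and from day 1 to day 4. The replicate block changed no call of a member. Of 194 recomputed member tests 10 lost a call, 9 of Tdh and 1 of Utf1, and of 1031 for listed genes and neighbours 96 did. With only the 2 groups compared, no listed gene kept its call on day 1. A dim array hides low levels, so signals near background in proliferating replicate 1 are bounds.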
